A study of Mus musculus with 28 samples.

Results

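Genes of the cornified epithelium were followed in single mouse molar tooth germs from the bud stage (E13) through the cap stage (E14) to the bell stage (E16). The group of 10 genes, of 52636 in the count table, consists of Cnfn, Lor, Krtdap, Sbsn, Ivl, Sprr1a, Sprr1b, Grhl3, Calml3, and Tgm3. Cnfn was chosen because its counts showed one of the largest rises to E16 in these same teeth, and the other 9 as known genes of stratified epithelia, to ask whether the oral epithelial program rises with it. The values of Cnfn at E16 are therefore given as a description without a test, and the other genes were also chosen with earlier results of these data known. RNAseq was made on wild type C57BL/6JOlaHsd embryos of E13.5, E14.5, and E16.5 per the labels, here called E13, E14, and E16, and each library holds 1 first molar tooth germ with as little surrounding tissue as the dissection allowed. The 7 teeth of E13 came from 7 embryos, the 7 of E14 from 6, and the 7 of E16 from 5, so that some teeth at E14 and E16 were the left and right molars of 1 embryo. A second table holds 6 teeth from 6 embryos of embryonic day 15 (E15). The animals of E13, E14, and E16 were wild type and untreated, and these groups differ by age. The paper does not describe the E15 teeth, so other differences of E15 cannot be told apart from age. A further E15 sample, the right tooth of embryo 5, is labelled but is not in the second table.

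A stratified epithelium renews itself from a basal layer, and the cells that leave it build up keratin filaments and finally a cornified envelope, a layer of proteins such as loricrin, involucrin, and the small proline-rich proteins that transglutaminases crosslink under the plasma membrane. The lining of the mouth stratifies in the same way, with keratins 4 and 13 as its typical suprabasal keratins, and it is continuous with the dental epithelium of the tooth germ, which buds from it. The enamel-forming dental epithelium itself does not cornify.

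The libraries held between 17814073 and 27115729 counts, with a median of 23827447, and levels are given as counts divided by the DESeq2 size factor of the library (normalized counts). Pairs of teeth of 1 stage differed by more than counting noise, with a chi-square of at least 7.74 per degree of freedom, so that no library appeared to be deposited 2 times. Each tooth was taken as a sample, although left and right molars of 1 embryo may not be independent. The left tooth of embryo 3 at E16 stood apart from the other 6 teeth of its stage. It had the lowest summed level of the dental epithelium genes, 16830 normalized counts against 37858 to 47187, of the basal epithelium genes, 100254 against 145258 to 168249, and of the mesenchyme genes, 26058 against 39512 to 52174. The E16 mean of Cnfn, the call of Grhl3, and several list counts are given with and without it, and the other E16 means below include it. Krtdap, Sbsn, and Calml3 were highest in this tooth. Without it their E16 means were 523 ± 127, 309 ± 68.7, and 292 ± 112 normalized counts (SD, n = 6). The tissue of the labels was borne out by its markers, since Shh and Lef1 of the dental epithelium and Msx1, Pax9, and Barx1 of the mesenchyme had counts in all stages.

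The genes lie in several places of the mouse genome (GRCm38). Lor, Ivl, Sprr1a, and Sprr1b lie on chromosome 3 within the epidermal differentiation complex, a cluster of envelope genes bounded by genes of the S100 family (90511034 to 93564643). Cnfn lies on chromosome 7 (25367620 to 25369724, minus strand). Sbsn (30751471 to 30756134) and Krtdap (30787896 to 30791097) lie on the plus strand of the same chromosome, on both sides of Dmkn, a further secreted protein gene of the suprabasal epidermis. Grhl3 is on chromosome 4, Calml3 on chromosome 13, and Tgm3 on chromosome 2. The only exon overlap was between Sbsn and Tmem147os on the same strand, over 279 bases, so that reads from there cannot be given to 1 gene with certainty.

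Promoter sequences of 9 of the 10 genes were taken from RefSeq (GRCm38.p6), each with 250 bases before the annotated start site and 50 bases after it. The 5 sequences shown are those of Cnfn, of the strong risers Krtdap and Sprr1a, and of Sprr1b and Ivl, which stayed near 0 counts, so that the start regions of genes that rose and of genes with almost no counts can be set side by side. They are written 5′ to 3′ on the strand of the gene, and capitals mark matches to TATAAA and to TGANTCA, with no overlap between the motifs. TATAAA, the letters of the TATA box, was searched on the gene's strand as this exact string. TGANTCA, searched on both strands, is a looser form of the AP-1 letters TGACTCA and TGAGTCA.
Cnfn (chr7:25369675-25369974, minus strand): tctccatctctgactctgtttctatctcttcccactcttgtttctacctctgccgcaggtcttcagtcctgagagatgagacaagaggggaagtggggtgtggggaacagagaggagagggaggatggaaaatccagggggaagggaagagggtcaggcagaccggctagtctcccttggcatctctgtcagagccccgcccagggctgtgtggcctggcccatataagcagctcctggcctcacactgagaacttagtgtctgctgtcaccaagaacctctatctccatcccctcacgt
Krtdap (chr7:30787655-30787954, plus strand): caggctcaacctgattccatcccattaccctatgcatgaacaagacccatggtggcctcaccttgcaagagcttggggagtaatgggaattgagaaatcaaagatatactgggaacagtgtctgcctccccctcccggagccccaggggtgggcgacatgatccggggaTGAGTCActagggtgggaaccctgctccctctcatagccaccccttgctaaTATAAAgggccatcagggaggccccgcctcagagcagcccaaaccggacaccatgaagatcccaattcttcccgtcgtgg
Sprr1a (chr3:92485832-92486131, minus strand): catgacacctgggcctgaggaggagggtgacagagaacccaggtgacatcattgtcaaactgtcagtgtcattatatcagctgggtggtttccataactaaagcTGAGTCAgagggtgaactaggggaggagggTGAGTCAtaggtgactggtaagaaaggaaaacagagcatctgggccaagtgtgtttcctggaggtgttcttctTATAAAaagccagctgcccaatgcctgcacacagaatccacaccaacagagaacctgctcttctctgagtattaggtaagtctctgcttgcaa
Sprr1b (chr3:92438730-92439029, minus strand): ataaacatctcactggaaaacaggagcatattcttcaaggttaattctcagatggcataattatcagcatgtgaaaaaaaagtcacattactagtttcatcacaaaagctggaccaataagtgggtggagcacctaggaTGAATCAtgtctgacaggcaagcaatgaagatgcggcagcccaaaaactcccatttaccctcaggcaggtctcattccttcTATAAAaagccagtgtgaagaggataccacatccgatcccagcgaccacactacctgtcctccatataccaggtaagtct
Ivl (chr3:92573686-92573985, minus strand): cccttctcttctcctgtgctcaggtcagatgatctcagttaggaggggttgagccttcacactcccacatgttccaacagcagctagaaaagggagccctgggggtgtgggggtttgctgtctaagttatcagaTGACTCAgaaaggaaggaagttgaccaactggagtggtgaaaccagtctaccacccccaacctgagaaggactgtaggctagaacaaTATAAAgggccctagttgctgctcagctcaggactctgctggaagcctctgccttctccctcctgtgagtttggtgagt
TATAAA was found in 6 of the 9 promoters and in 8.32% of all 32851 RefSeq mouse promoters of this length. In 5 of these genes, Lor, Krtdap, Ivl, Sprr1b, and Tgm3, its first base lay between 30 and 27 bases before the start site, and in Sprr1a it lay 43 bases before it. TGANTCA was likewise found in 6 of 9, against 7.81% of all promoters, and Sbsn and Sprr1a held it 2 times. The letters AACNNGTT, the core recognized by grainyhead-like factors such as Grhl3, were in 0 of the 9 promoters and in 4.20% of all promoters. The windows of Cnfn and Grhl3 held none of the 3 motifs, which says only that these letters are not within these 300 bases. Both Ivl and Sprr1b, which stayed near 0 counts, and the rising genes Krtdap and Sprr1a held TATAAA and TGANTCA together. The TGANTCA match was TGAGTCA in Krtdap and Sprr1a and TGACTCA in Ivl. In Sprr1b it was TGAATCA, so that Sprr1b held neither TGACTCA nor TGAGTCA.

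Cnfn, which encodes cornifelin, a small cysteine-rich protein of the cornified envelope, had 0 counts in all 14 teeth of E13 and E14. At E16 it was counted in every tooth, with 379 normalized counts in the right tooth of embryo 7, 267 in the left tooth of embryo 5, 242 in the right tooth of embryo 6, 217 in the left tooth of embryo 3, 106 and 85.3 in the left and right teeth of embryo 8, and 96.7 in the left tooth of embryo 6. The teeth thus fell into 4 with more than 200 and 3 with about 100, and no E16 tooth came near the earlier stages. The mean of E16 was 199 ± 109 (SD, n = 7), at least 467-fold above E14 and at least 427-fold above E13, where the limit is set by 3 counts over the 7 teeth of the earlier stage. Without the left tooth of embryo 3 the mean was 196 ± 119 (SD, n = 6).

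**Figure D1:**
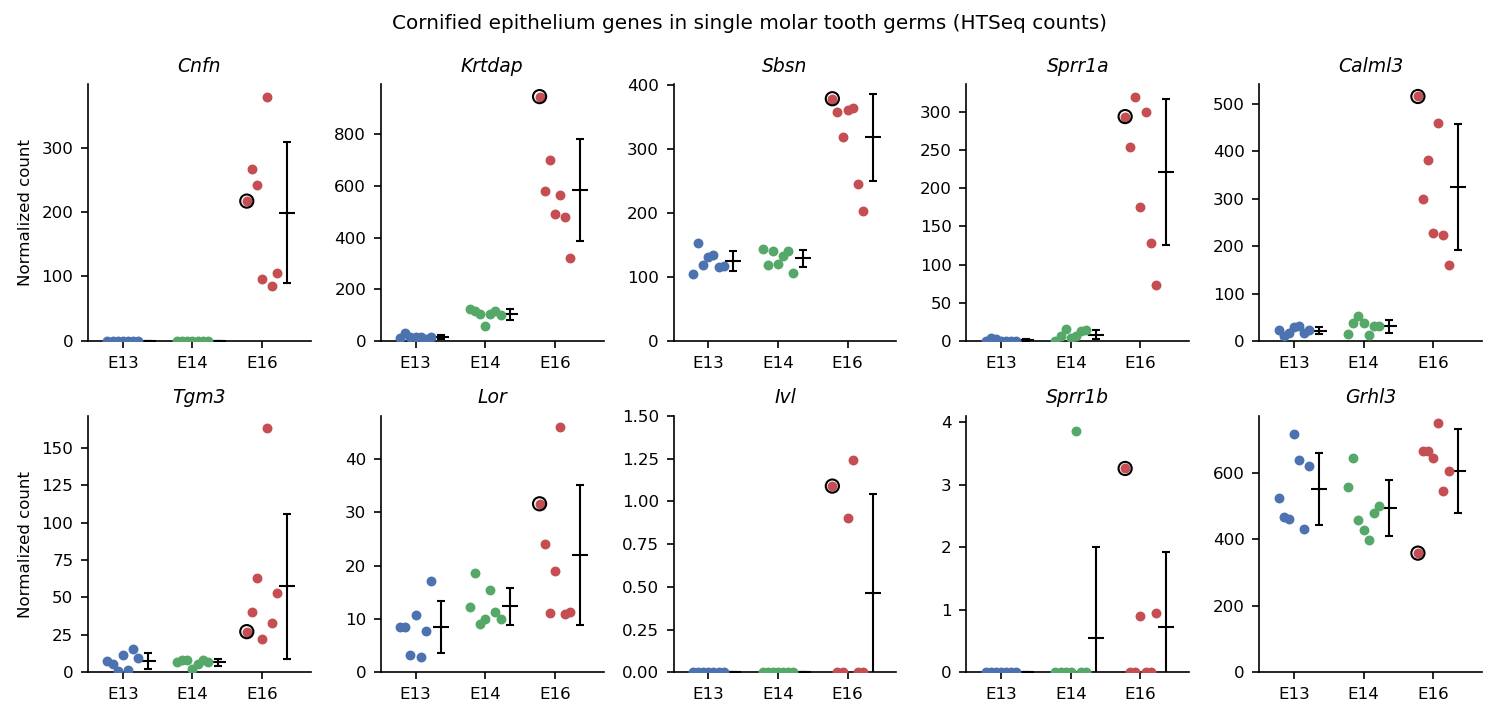
Normalized counts of the 10 genes in each tooth of E13, E14, and E16 (HTSeq counts divided by size factors), 1 point per tooth, with the mean and SD (n = 7) beside the points, cut at 0, and a linear axis of its own for each gene. The circled point is the left tooth of embryo 3. Cnfn, Krtdap, Sbsn, Sprr1a, Calml3, and Tgm3 at E16 lie above every E14 tooth, Ivl and Sprr1b stay below 4 normalized counts, and Grhl3 overlaps between all stages.

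Of the 9 other genes, 7 passed the filter on low counts and were tested. Of these 7, 2 changed from E13 to E14, Krtdap and Sprr1a, and both were higher. Beside them, 19.7% of the 19101 genes tested changed in either direction and 8.47% were lower. Nothing is read from a share of so few genes. A call here is a quasi-likelihood result of edgeR at a Benjamini-Hochberg adjusted p below 0.05 over all genes tested. From E14 to E16, 5 of the 7 changed (Krtdap, Sbsn, Sprr1a, Calml3, and Tgm3), all of them higher, beside 28.1% of all genes in either direction and 13.1% lower. From E13 to E16, 6 changed, the same 5 with Lor, again all higher, beside 41.3% of all genes in either direction and 19.6% lower. Since Cnfn was chosen by its rise to E16 and the others with earlier results known, nothing is read from the shares at E16. Grhl3 was not called in any of the 3 comparisons, and Ivl and Sprr1b had too few counts to pass the filter on low counts. Cnfn, Sprr1a, and Tgm3 passed the filter through their E16 counts alone. This favored a call at E16, so the calls of Sprr1a and Tgm3 there are not read as support for a rise. Of the 5 genes with enough counts at E13 and E14, 3 (Krtdap, Sbsn, and Calml3) were higher at E16 than at E14. The median log2 fold change of all genes tested was -0.01, 0.00, and -0.01 in the 3 comparisons. The scaling used in the fit (TMM) itself sets most genes near 0. These medians therefore cannot show whether most genes shifted together, and the values below were not shifted. In whole tooth germs, more cells of a type and more RNA per cell cannot be told apart.

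Among the structural proteins of the envelope other than Cnfn, Sprr1a rose most. Sprr1a encodes a small proline-rich protein that is crosslinked into the envelope as a bridge between other proteins. At E13 it had 3.21 and 2.22 normalized counts in the left teeth of embryos 2 and 3 and 0 in the other 5 teeth. At E14 the 7 teeth had 0, 4.01, 5.79, 6.52, 13.3, 13.7, and 15.4, and at E16 they had 73.2, 128, 175, 254, 294, 300, and 320. The E13 and E14 teeth overlapped, whereas each E16 tooth was above all earlier ones. The log2 fold change was 3.31 ± 0.80 (SE) from E13 to E14 (edgeR, adjusted p = 0.00441), or 4.20 without the left tooth of embryo 2 at E13, and 4.67 ± 0.44 from E14 to E16 (adjusted p = 1.15e-08). Since Sprr1a passed the filter through its E16 counts alone, the filter favored the call from E14 to E16.

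Sprr1b, the closest relative of Sprr1a in the same cluster, had 0 counts at E13, 4 counts in 1 tooth of E14, and 5 counts over 3 teeth of E16, so that neither a level nor a change could be measured. Ivl, which encodes involucrin, an early scaffold of the envelope in the epidermis, had 0 counts at E13 and E14 and 1 count in each of 3 teeth at E16. Lor, which encodes loricrin, the main protein of the epidermal envelope, was low but measurable. Its teeth ranged from 2.84 to 17.2 normalized counts at E13 (median tooth 8.48), from 9.08 to 18.6 at E14, and from 11.0 to 45.9 at E16, and neighboring stages overlapped. The means were 8.45 ± 4.85, 12.4 ± 3.44, and 22.0 ± 13.1 (SD, n = 7). Only the comparison of E16 with E13 passed the test, with a log2 fold change of 1.36 ± 0.40 (SE, edgeR adjusted p = 0.00760), while that of E16 with E14 was 0.80 ± 0.38 (adjusted p = 0.122). Of the 4 genes of the cluster on chromosome 3, therefore, 1 rose strongly, 1 rose over the whole interval from a low level, and 2 were at or near 0.

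The secreted proteins of the suprabasal layers were Krtdap and Sbsn, neighbors on chromosome 7. Krtdap, the keratinocyte differentiation associated protein, had 7.85, 9.42, 14.8, 15.1, 15.6, 16.3, and 30.0 normalized counts in the E13 teeth. In the E14 teeth it had 57.2, 100, 103, 105, 116, 116, and 125, and in the E16 teeth 321, 479, 491, 565, 581, 702, and 946. No 2 stages overlapped, so that Krtdap rose at both steps. The log2 fold changes were 2.73 ± 0.26 (SE, edgeR adjusted p = 4.21e-08) from E13 to E14 and 2.49 ± 0.21 (adjusted p = 2.64e-09) from E14 to E16. The mean rose 6.63-fold and then 5.65-fold, which together made 37.5-fold, from 15.6 to 584.

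Sbsn, suprabasin, behaved differently at the first step. Its teeth had 104, 116, 118, 119, 131, 134, and 153 normalized counts at E13, with a mean of 125, and 107 to 144 at E14, with a mean of 129 ± 13.6 (SD, n = 7). The log2 fold change of 0.05 had a 95% interval from -0.22 to 0.31 (adjusted p = 0.852, edgeR). At E16 the teeth had 204, 245, 319, 359, 361, 365, and 379, all above E14, with a log2 fold change of 1.30 ± 0.13 (SE, adjusted p = 4.53e-08). This was the smallest fold among the 5 genes called at this step, and the one with the smallest spread between teeth, an SD of 68.1 on a mean of 319.

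Calml3, a calmodulin-like calcium-binding protein of stratified epithelia, was detected in every tooth. It ranged from 9.64 to 31.2 normalized counts at E13 and from 12.5 to 51.8 at E14, which overlapped, with a log2 fold change of 0.55 (edgeR, adjusted p = 0.250). At E16 the teeth had 161, 223, 227, 300, 381, 461, and 516. Every E16 tooth was thus above 3 times the highest E14 tooth, with a log2 fold change of 3.35 ± 0.30 (SE, adjusted p = 4.47e-09) and a mean of 324 ± 133 (SD, n = 7) against 31.3 ± 13.7.

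Tgm3, an epidermal transglutaminase that crosslinks envelope proteins, had 1.11 to 15.7 normalized counts at E13 and 2.01 to 8.57 at E14. At E16 it had 22.6, 27.2, 32.9, 40.2, 53.3, 62.8, and 163, all above the earlier teeth, with the right tooth of embryo 7 far above the rest. The log2 fold change from E14 was 3.04 ± 0.48 (SE, edgeR adjusted p = 2.83e-05). That from E13 to E14 was -0.17 ± 0.52 (adjusted p = 0.864). Tgm3 also passed the filter through its E16 counts alone, which favored the call from E14 to E16. Its fold depended on the table of counts, as described with the E15 teeth.

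Grhl3, a grainyhead-like transcription factor that acts in epidermal differentiation and barrier formation, stood apart from the other 9 in that it was well expressed from the start, with the highest level per kb of exon of the 10 at E13 (197 ± 38.9 normalized counts per kb, SD, n = 7). Its teeth ranged from 431 to 715 normalized counts at E13, from 396 to 645 at E14, and from 358 to 750 at E16, and all 3 stages overlapped. The log2 fold change was -0.16 from E13 to E14 (95% interval -0.43 to 0.12, adjusted p = 0.472, edgeR) and 0.29 from E14 to E16 (0.01 to 0.56, adjusted p = 0.137). The lowest E16 tooth, with 358, was the left tooth of embryo 3, and without it the log2 fold change from E14 was 0.39 and passed the test (adjusted p = 0.0113). Any change of Grhl3 was thus small beside those of the other genes that reached more than 50 normalized counts at E16.

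**Figure D2:**
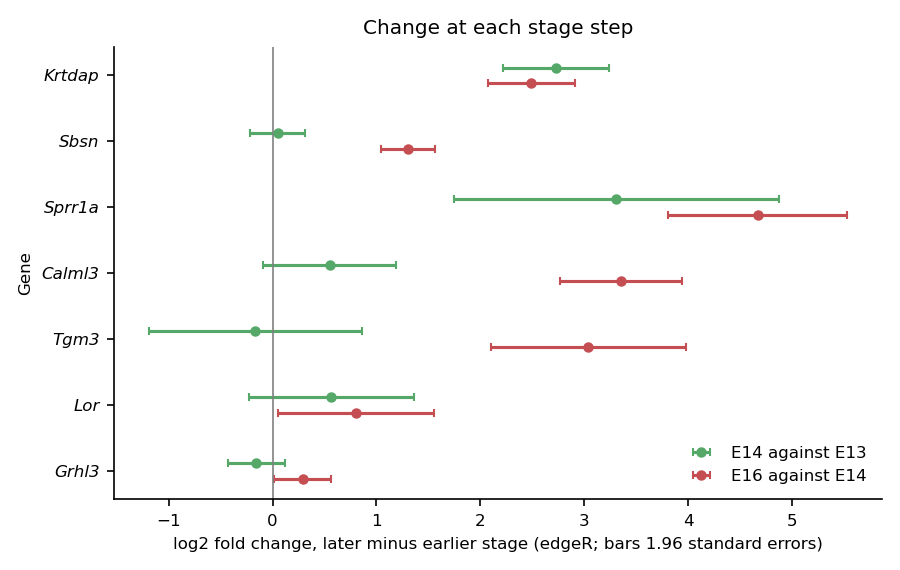
Log2 fold change at each step, E14 minus E13 and E16 minus E14, from the edgeR fit, with bars for the 95% interval. Shown are the 7 genes other than Cnfn that passed the filter, of which Sprr1a and Tgm3 passed through their E16 counts alone. Krtdap rose at both steps by a similar amount, Sbsn, Calml3, and Tgm3 changed from E14 to E16 but not measurably before, and Grhl3 lies near 0. Cnfn is left out because it was chosen by its change, and Ivl and Sprr1b because they did not pass the filter.

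The order of the levels at E16 was compared on normalized counts per kb of exon. Krtdap stood at the top with 859 ± 291 (SD, n = 7), although its lowest tooth, 473, was below the highest of Cnfn, 527. Cnfn with 277 ± 152, Sprr1a with 274 ± 119, Calml3 with 228 ± 93.4, and Grhl3 with 217 ± 45.0 followed and did not differ beyond their spread. Sbsn came next with 87.9 ± 18.8, and its highest tooth, 104, was below every tooth of Cnfn, Calml3, and Grhl3 but not of Sprr1a. Tgm3 (13.9 ± 11.7) and Lor (12.4 ± 7.36) were indistinguishable from each other, and Sprr1b (0.881) and Ivl (0.240) were at the bottom.

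The 10 genes were then set beside other genes of stratification. A list of 21 suprabasal genes of the oral and esophageal epithelium stood closest to the question. Of these 21, 17 passed the filter and were higher at E16 than at E14, while Krt76, Rhcg, Clca3a2, and Serpinb2 had too few counts. However, 9 of the 17, among them Krt4, Krt16, Sprr3, and Crnn, passed the filter through their E16 counts alone. The filter thus favored a call for these 9, and their calls are not read as support for a rise. The other 8 had enough counts in the E13 and E14 teeth, and 8 of these 8 were higher, with a median log2 fold change of 2.83 beside 0.00 for all genes. Of all genes tested, 28.1% changed at this step in either direction and 13.1% were lower. The number of the 17 that were higher was unchanged without the left tooth of embryo 3. Krt13, the main suprabasal keratin of the mouth, had a level of 16.1 ± 14.4 normalized counts at E13 and 97.3 ± 34.7 at E14, and of 11625 ± 3394 in the E16 teeth (SD, n = 7). Krt4, its usual partner, had 4.15 ± 4.65, 16.3 ± 9.49, and 3310 ± 1851. Krt13 therefore rose from E14 to E16 with a log2 fold change of 6.89 ± 0.32 (SE, edgeR adjusted p = 1.19e-13). The log2 fold change of Krt4 was 7.63 ± 0.42, given as a description because Krt4 passed the filter through its E16 counts alone.

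Further genes of this list reached high levels at E16. Krt6a, a keratin of the periderm and of suprabasal oral epithelium, reached a mean of 4643 normalized counts, and the desmosomal cadherin genes Dsc2 and Dsg3 reached 3931 and 2349. Ly6d, a surface protein of differentiating keratinocytes, went from 1.43 to 20.5 to 1050, and Sprr3, a small proline-rich protein typical of the esophagus and mouth, from 1.71 to 0.943 to 551. Lypd3 went from 37.5 to 51.7 to 310. At the first step, from E13 to E14, 6 of the 17 that passed the filter were higher and none lower, beside 19.7% of all genes in either direction and 8.47% lower.

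A list of 48 genes of the cornified envelope and late differentiation was divided in a different way. No count at all was found for 14 of the 48 in any of the 21 teeth, 11 had too few counts, 19 were higher at E16 than at E14, none was lower, and 4 were not called. Of the 23 that passed the filter, 5 did so through E16 alone (Cdsn, Cst6, Dsc1, Spink5, and Sprr3), and 15 of the other 18 were higher. The share over all genes at this step was 28.1% in either direction and 13.1% lower. Among the 14 were the late cornified envelope genes Lce1a1, Lce1b, Lce1c, Lce1f, Lce1g, Lce1m, Lce3a, and Lce3c, the small proline-rich genes Sprr2a1, Sprr2d, Sprr2e, Sprr2h, and Sprr4, and Tchhl1. The epidermal gene Flg, which encodes filaggrin, had 29 counts in all over the E16 teeth. In contrast, Krt1, a suprabasal keratin, rose from 132 to 2416 ± 937 normalized counts (SD, n = 7), Spink5, a protease inhibitor, from 10.2 to 1553 ± 724, and Scel, sciellin, from 133 to 630 ± 111. The envelope plakin genes Ppl and Evpl rose from 1282 to 3272 and from 604 to 1792, and the desmoglein gene Dsg1a from 359 to 2327. Dmkn, which lies between Sbsn and Krtdap, had 6.05, 52.3, and 478 normalized counts and rose at both steps, as Krtdap did. Without the left tooth of embryo 3, 22 genes of the list were higher and none lower.

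In the epidermal differentiation complex as a whole, 39 of the 75 annotated genes had no count, 18 passed the filter, and 12 were higher and none lower at E16 than at E14, of which 8 were among the 11 genes with enough counts before E16. Beside these stood 28.1% of all genes in either direction and 13.1% lower. The genes with the most counts at E16 among those called were of the S100 family, calcium-binding proteins that bracket the cluster. S100a11 had a mean of 1776 normalized counts, S100a6 of 1096, S100a16 of 770, and S100a14 of 619. Within the part that holds the envelope genes, Sprr3 with 551, Tchh (trichohyalin) with 401, Sprr1a with 221, and Crnn (cornulin) with 45.3 were those called. Sprr3, Sprr1a, and Crnn passed the filter through their E16 counts alone, so their calls are not read as support for a rise.

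Among 30 transcription factors and other regulators of stratification, 17 were higher at E16 than at E14, 3 were lower (Klf4, Hes1, and Tfap2c), and 10 were not called, with a median log2 fold change of 0.63. The share over all genes was 28.1% in either direction and 13.1% lower. The other grainyhead-like genes differed from Grhl3 in that they were called. Grhl1 rose from 187 to 485 normalized counts (log2 fold change 1.37, edgeR adjusted p = 4.52e-09) and Grhl2 from 988 to 1581 (0.67, adjusted p = 9.32e-07), but the difference between these genes was not tested. Zfp750, a regulator of terminal epidermal differentiation, rose from 943 to 2804, and Trp63, the p63 gene of stratified epithelia, from 4084 to 7850. Ehf rose from 43.5 to 279. At the first step 20 of the 30 were higher and 1, Arnt2, was lower, beside 19.7% of all genes in either direction and 8.47% lower.

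**Figure D3:**
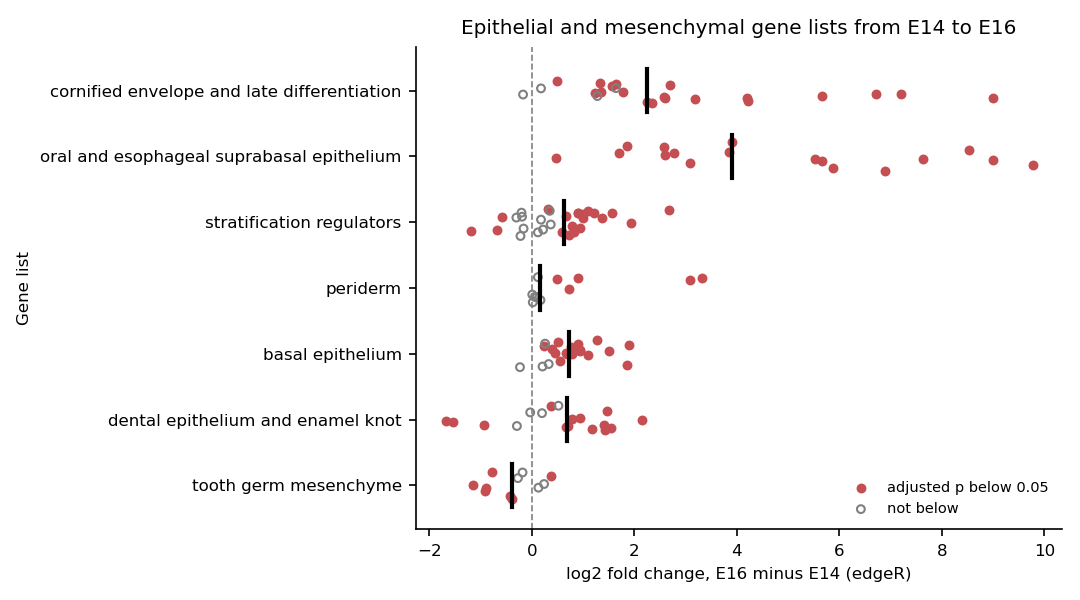
Log2 fold change of E16 minus E14 for each gene that passed the filter in 7 lists, filled where the adjusted p was below 0.05 (edgeR), with the median of each list as a bar and the median of all genes tested as a dashed line. The list of oral and esophageal suprabasal genes has its median at 3.91, or 2.83 without the genes that passed the filter through E16 alone, and that of the cornified envelope at 2.24, or likewise 1.71, whereas the basal epithelium list lies at 0.73, the dental epithelium list at 0.68, and the mesenchyme list at -0.39.

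Markers of other layers and tissues moved at the same time. The counts of genes called from E14 to E16 stand beside 28.1% of all genes in either direction and 13.1% lower. Of 22 basal epithelium genes, 18 were higher at E16 than at E14 and none lower, with a median of 0.73. Krt5, a basal keratin, went from 4701 to 9450 to 23005 normalized counts and Krt14 from 4039 to 5699 to 9046. The summed level of the basal list ranged from 45470 to 62002 at E13, from 76699 to 96961 at E14, and from 100254 to 168249 at E16, so that no 2 stages overlapped. Of 11 periderm genes, which mark the flat outer layer of the embryonic epithelium, 5 were higher, none was lower, and the median was 0.17. Of 20 dental epithelium and enamel knot genes, 11 were higher (such as Sp6, Shh, and Msx2), 3 lower (Fgf3, Fgf4, and Fgf20), 4 not called, and 2 too low to test. Of 11 mesenchyme genes, 1 was higher and 6 were lower, and without the left tooth of embryo 3 at E16 3 were higher and 6 lower. In order of stage, the summed blood genes had medians of 6898, 3964, and 1255, the cartilage genes of 4456, 2258, and 1739, and the bone genes of 5481, 5377, and 9712. The muscle genes had 1104, 1230, and 1160, and 1 tooth of E13 reached 30090. At E16 the sums ranged from 913 to 2711 for blood, from 1626 to 1994 for cartilage, from 4395 to 10956 for bone, and from 689 to 3948 for muscle. The part of these tissues and of the amount of surface epithelium in each dissected germ in the rise of the cornified genes was not tested.

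The levels were also expressed per 1000 normalized counts of the summed basal epithelium list of the same tooth. This list does not separate surface from dental epithelium, so the scale does not correct for the amount of surface epithelium. On this scale Cnfn was at 0 in all E13 and E14 teeth and between 0.548 and 2.25 at E16. Krtdap had means of 0.288 ± 0.102, 1.21 ± 0.259, and 4.17 ± 2.40 (SD, n = 7), again with no overlap between stages. Calml3 had 0.412 ± 0.150, 0.361 ± 0.146, and 2.30 ± 1.37, and Sprr1a had 0.0136, 0.0968, and 1.53. Tgm3 had 0.148, 0.0786, and 0.371, and in these 3 genes each E16 tooth lay above all E14 teeth. The E16 teeth of Tgm3, from 0.151, overlapped those of E13, up to 0.345. The rises of Krtdap, Sprr1a, Calml3, and Tgm3 from E14 to E16 were thus larger than that of the summed basal list.

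The other genes behaved otherwise on the basal scale. Sbsn had 2.38 ± 0.232, 1.53 ± 0.216, and 2.21 ± 0.776 (SD, n = 7), lower at E14 than at E13 with no overlap and at E16 overlapping both. Lor had 0.160, 0.146, and 0.154 and overlapped in all stages. The direction from E13 to E16 was therefore turned for Sbsn and Lor, with log2 ratios of -0.11 and -0.05. Grhl3 fell from 10.5 ± 1.93 to 5.78 ± 0.726 to 4.02 ± 0.363 per 1000 basal counts, and no 2 stages overlapped. On this scale too, the left tooth of embryo 3, whose basal sum was the lowest of E16, had the highest Krtdap, 9.43, and the highest Calml3, 5.14.

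Within E16 the teeth differed in the cornified genes. The right tooth of embryo 7 was the highest in Cnfn (379), Lor (45.9), Tgm3 (163), and Grhl3 (750), and also in Krt13 (16237) and Krt4 (6890). The left tooth of embryo 8 was the lowest in Krtdap (321), Sbsn (204), Sprr1a (73.2), Calml3 (161), and Krt13 (7190), and its summed dental epithelium genes, 37858, were the lowest after those of the left tooth of embryo 3, 16830. The left tooth of embryo 3 had the highest Krtdap (946), Sbsn (379), Calml3 (516), and Sprr3 (1088) of its stage, beside the lowest Grhl3. The 4 teeth with the most Cnfn were also the 4 with the most Krtdap, Sprr1a, and Calml3, and with the most Krt13, Krt4, and Sprr3. The other 4 measurable genes of the group did not share this order. Tgm3 in the left tooth of embryo 3, 27.2, was below both teeth of embryo 8, Lor and Sbsn in the right tooth of embryo 6, 11.2 and 319, were below the left tooth of that embryo, and Grhl3 was lowest in the left tooth of embryo 3. The 7 teeth came from 5 embryos, and no correlation was computed over them.

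**Figure D4:**
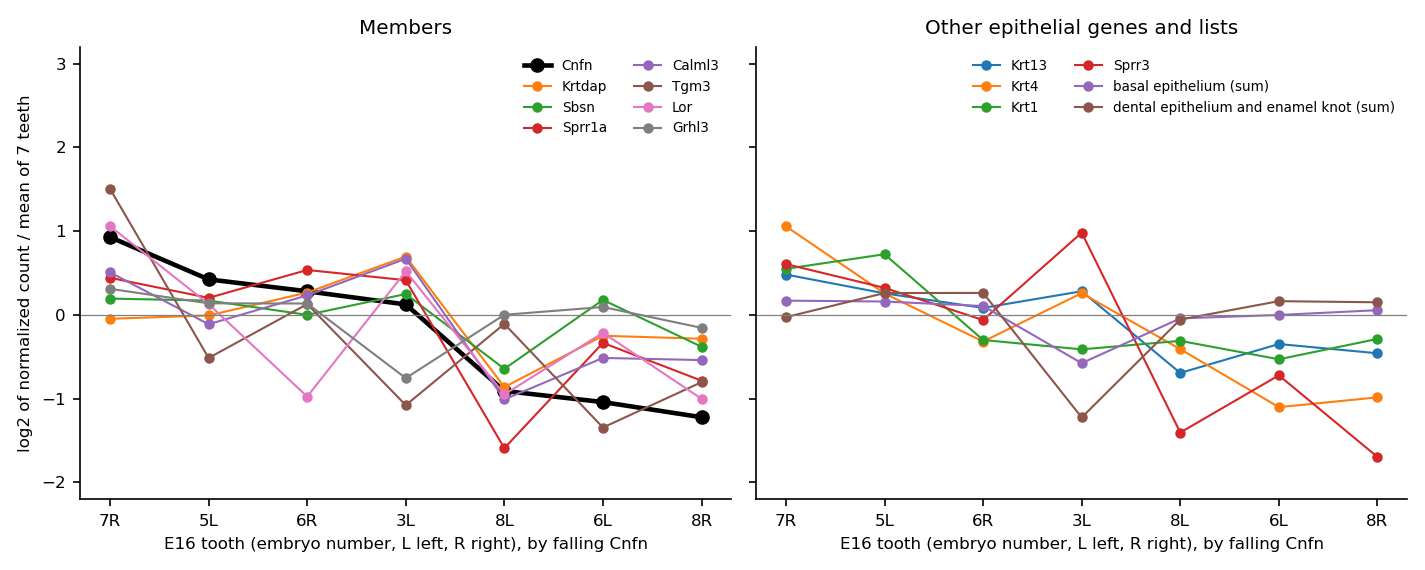
Level of each gene or list in the 7 E16 teeth as the log2 of the normalized count over its mean in these teeth, with the teeth ordered by falling Cnfn. The left panel shows the 8 genes with enough counts and the right panel 4 suprabasal genes and 2 list sums. Cnfn, Krtdap, Sprr1a, Calml3, Krt13, Krt4, and Sprr3 are higher in the 4 teeth at the left than in the 3 at the right, whereas the dental epithelium sum is lowest in the left tooth of embryo 3 (3L), with 16830 normalized counts.

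Left and right molars of the same embryo also differed. In embryo 6 at E16 the right tooth had 2.50 times the Cnfn of the left (242 and 96.7), 2.78 times the Tgm3, 1.83 times the Sprr1a, 1.68 times the Calml3, and 1.43 times the Krtdap, but 0.885 times the Sbsn and 1.03 times the Grhl3. In embryo 8 the right tooth had 0.808 times the Cnfn and 1.75 times the Sprr1a of the left. In embryo 6 at E14, Krtdap was 0.888 times and Calml3 0.387 times as high in the right tooth, from 12.5 and 32.4 normalized counts. With 3 such pairs, no direction between sides was tested.

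The E15 teeth were examined in the table of counts estimated with Salmon, which covers the E13, E15, and E16 teeth. It lists 6 of the 10 genes and not Lor, Krtdap, Ivl, and Sprr1b. Cnfn had 11.2 normalized estimated counts in the left tooth of embryo 3 and 4.43 in the right tooth of embryo 6 at E15, and 0 in the other 4 teeth. All 7 E13 teeth were at 0, and the E16 teeth ranged from 80.2 to 354. The mean of E16 was thus 71.7-fold above the mean of E15, 2.61 ± 4.58 (SD, n = 6), and 211-fold above it without the left tooth of embryo 3 at E15, where the mean was 0.886. In contrast, the mean of E15 was at least 5.77-fold above E13. The comparison of E15 with E13 did not pass the edgeR test (adjusted p = 0.0570), and it passed in the DESeq2 test (adjusted p = 0.0197). The E13 teeth at 0 were among those by which Cnfn was chosen, so this comparison is not read as support for a rise before E16. With edgeR it moved with single teeth, since the 2 teeth with counts hold all the Cnfn of E15. Without the left tooth of embryo 3 at E15 the adjusted p was 0.172, and it did not pass without the right tooth of embryo 6 either, whereas it passed when the right tooth of embryo 1 or 4 at E15 or the right tooth of embryo 7 at E16 was left out (adjusted p = 0.0431, 0.0366, and 0.0492).

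Sprr1a and Calml3 were higher at E15 than at E13, which was 2 of the 6 genes, beside 18.3% of the 13447 genes tested in this table that were higher. Nothing is read from a share of so few genes. Sprr1a had 5.50, 7.14, 11.5, 27.5, 35.1, and 43.5 normalized estimated counts at E15, all above the E13 teeth, which had 3.18, 1.11, and 5 times 0. The E16 teeth, from 70.8 to 325, were all above those of E15. The log2 fold changes were 4.97 ± 0.76 (SE, edgeR adjusted p = 2.75e-05) from E13 to E15, or 6.25 without the left tooth of embryo 2 at E13, and 3.29 ± 0.46 (adjusted p = 5.83e-05) from E15 to E16. Calml3 had 50.4 to 103 at E15, between 9.53 to 30.0 at E13 and 157 to 578 at E16, with log2 fold changes of 1.75 ± 0.30 (adjusted p = 0.000113) and 2.21 ± 0.28 (adjusted p = 2.34e-05).

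From E15 to E16, Sbsn, Sprr1a, Calml3, and Tgm3 were higher, 4 of the 5 genes other than Cnfn, beside 3.64% of all genes. As for the other comparisons with E16, nothing is read from this share. Whether genes passed the filter through E16 alone was not checked in this table. Sprr1a had few counts before E16, so its call from E15 to E16 is not read as support for a rise. Sbsn had a mean of 149 ± 22.4 at E13 and 177 ± 35.9 (SD, n = 6) at E15, which did not pass the test (adjusted p = 0.180, edgeR), and 393 ± 80.8 at E16, with a log2 fold change from E15 of 1.13 ± 0.16 (SE, adjusted p = 6.26e-05). Grhl3 had means of 499, 468, and 551, with intervals of its log2 fold change from -0.35 to 0.25 at the first step and from -0.09 to 0.51 at the second.

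Tgm3 differed between the tables. Its mean count at E13 was 7.29 in the HTSeq table and 50.3 in the Salmon table, 6.90 times as high, and at E16 it was 56.3 and 103, 1.83 times as high. For Cnfn, Sprr1a, Calml3, Sbsn, and Grhl3 the corresponding ratio was between 0.800 and 1.24. The log2 fold change of Tgm3 from E13 to E16 was accordingly 2.87 ± 0.48 (SE) in the HTSeq table and 0.97 ± 0.30 in the Salmon table (edgeR, adjusted p = 2.92e-05 and 0.0133), and that from E15 to E16 was 1.16 ± 0.32 (adjusted p = 0.0265). In the Salmon table the E16 teeth, from 56.0 normalized estimated counts, overlapped those of E13, up to 67.5. The call from E15 to E16 was lost without the left tooth of embryo 5 or 8 at E15 or without the right tooth of embryo 7 at E16, with adjusted p values of 0.0550, 0.0659, and 0.0859. No exon of another gene overlaps Tgm3 in the annotation, and the cause of the difference between the tables was not tested.

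**Figure D5:**
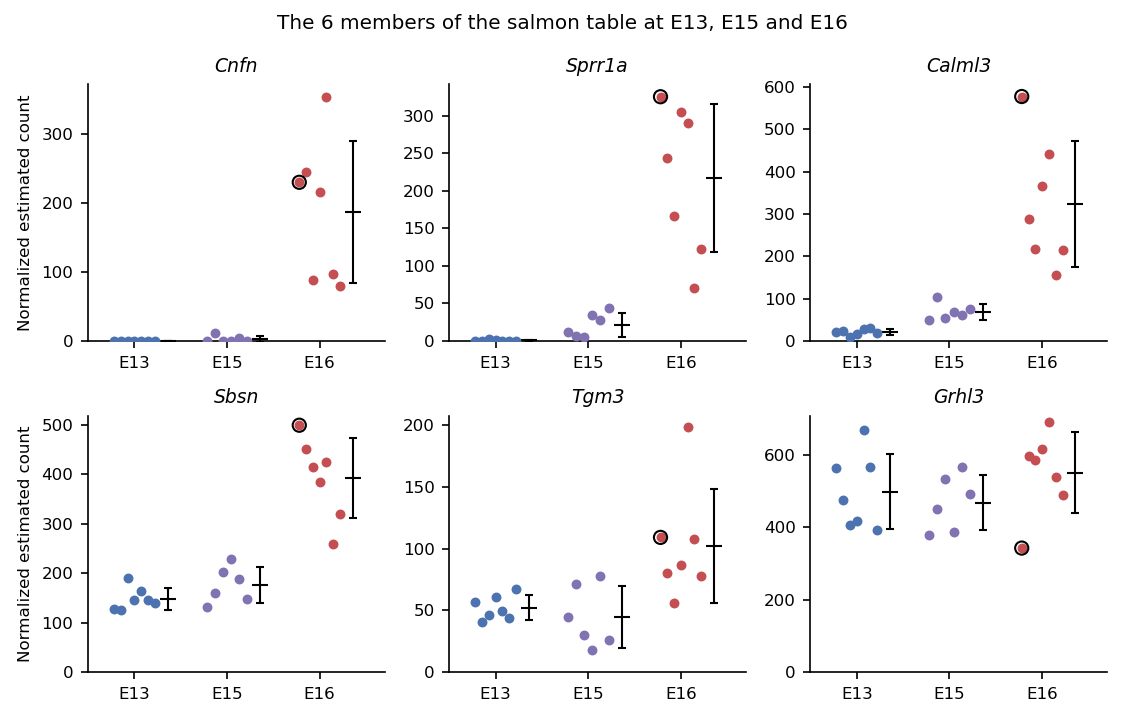
Normalized estimated counts of the 6 genes listed in the Salmon table in each tooth of E13 (n = 7), E15 (n = 6), and E16 (n = 7), with the mean and SD, cut at 0, beside the points and a circle around the left tooth of embryo 3 at E16. Cnfn is at or near 0 until E15 and between 80.2 and 354 at E16, Sprr1a and Calml3 lie between the other stages at E15, and Grhl3 overlaps between all 3.

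Genes with a pattern like that of Cnfn were ranked by Pearson's r of log2(normalized count + 1) over the 21 teeth, among 19100 genes. The teeth fall into stages, so that r mostly measures how alike the differences between stages were, and it is given as a description. The highest were Crnn (0.989), Cdsn (0.976), Slc39a8 (0.974), Sprr3 (0.973), Dlg2 (0.972), Slc4a4 (0.972), Rspo2 (0.971), and Sox5 (0.971). Crnn, Cdsn (corneodesmosin), and Sprr3 are genes of suprabasal epithelia, with 45.3 ± 14.8, 85.1 ± 47.5, and 551 ± 342 normalized counts (SD, n = 7) at E16 and means below 2 at E13 and E14. The other 5 were already at means of 320 or more at E13 and E14. Within the group of 10, Sbsn (0.954) and Calml3 (0.952) were the most like Cnfn, followed by Sprr1a (0.906), Tgm3 (0.857), Krtdap (0.834), Lor (0.594), and Grhl3 (0.335).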

How the data were processed

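RNA of single molar tooth germs was sequenced as 84-base reads. The deposited counts per gene were made by the authors with Trimmomatic, STAR on GRCm38 (Ensembl 90), and HTSeq, with no normalization; whether strand was used is not given in the sources used here. The authors also deposited estimated counts from Salmon (version 0.99.0 per the labels) for 14185 genes, written as whole numbers. The number of HTSeq columns is 21, and 1 E13 column, with its embryo written as X, was placed by stage only. Of 52636 identifiers, 233 had no match in the annotation.

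Each table was fitted by itself in edgeR (version 4.0.16, R 4.3.3) with a factor for stage, TMM, and the filterByExpr filter, which kept 19101 and 13447 genes, and the quasi-likelihood test with Benjamini-Hochberg adjustment at 0.05. The standard error of a log2 fold change was taken from its F statistic. Normalized counts are counts divided by DESeq2 (version 1.42.0) size factors, 0.805 to 1.18. The fit was tested on simulated data. Embryos of different stages are not related, so no pairing between stages exists, and p values measure the spread between teeth, some of which share an embryo.

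The 10 genes and the lists were chosen with earlier results of these data known. Named genes of a list were up to 8 with the highest E16 mean among those called, markers at 0, and the 8 genes most like Cnfn; a few others (Krt76, Rhcg, Clca3a2, Serpinb2, Flg, Dmkn, Grhl1, Ehf, and genes that were called lower) were named after their values were seen. Alternatives were DESeq2, its size factors, other filters, side, teeth summed by embryo, the basal scale, the Salmon table, and each tooth left out.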

Additional observations from a re-analysis of the deposited data

Results flagged for a closer look

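In 6 of 31 groups of teeth with counts, the highest or lowest tooth lay further from the others than Dixon's 95% limit allows, whereas chance gives about 1 in 20. Krtdap was highest in the left tooth of embryo 2 at E13, with 30.0 normalized counts and 16.3 in the next tooth. Krtdap was lowest in the right tooth of embryo 5 at E14, with 57.2 and 100 in the next. In the same E14 tooth Tgm3 was lowest, with 2.01 and 5.79 in the next. Tgm3 was highest in the right tooth of embryo 7 at E16, with 163 and 62.8 in the next. The other 2 were Sprr1b in the right tooth of embryo 6 at E14, with 3.86 normalized counts from 4 reads, and in the left tooth of embryo 3 at E16, with 3.26 from 3 reads.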

How the results depend on the processing

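The number of genes called in each comparison stayed within 1.5 times its value under each alternative with a test, and was 2 in all runs with a tooth left out for E14 against E13, 5 to 6 for E16 against E14, and 6 for E16 against E13. In the Salmon table it was 2 to 3 for E15 against E13 and 3 to 4 for E16 against E15. Relative to the basal epithelium list, the log2 change from E13 to E16 turned to -0.05 for Lor and to -0.11 for Sbsn. With a tooth left out, values near 0 changed sign, from -0.35 to 0.12 for Tgm3 (E14 against E13) and from -0.11 to 0.03 for Grhl3 (E15 against E13). Calls changed with single teeth for Grhl3 (E16 against E14, 0.24 to 0.39), Cnfn (E15 against E13, 3.15 to 4.74), and Tgm3 (E16 against E15, 0.92 to 1.39), and the cause was not tested. Without the left tooth of embryo 3 at E16, 22 genes of the cornified envelope list were higher than at E14 in place of 19, 20 regulators in place of 17, and 20 basal genes in place of 18. This alternative, the E15 mean of Cnfn without 1 tooth, and the count of genes that passed the filter before E16 were chosen after seeing the data.

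The main limits are the 5 embryos behind the E16 teeth, whole germs with an unmeasured amount of surface epithelium, and counts of Ivl and Sprr1b too low for a test. The teeth varied with a coefficient of 21.2% beyond counting error, and at the few counts of Lor, Tgm3, and Sprr1a before E16 depth also limited the precision.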
